A study of Mus musculus with 2 samples.

Results

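Goblet cells are the mucus-secreting cells of the intestinal epithelium, and this account covers 10 genes of that cell type: 4 transcription factors (Atoh1, Spdef, Gfi1 and Creb3l1), 2 proteins of the endoplasmic reticulum (ER), Agr2 and Ern2, and 4 secreted products of the mucus layer (Tff3, Fcgbp, Zg16 and Clca1). The members were taken by gene symbol, so that every probe set annotated to a member alone was used. All 10 were on the array, with 14 probe sets, out of 18193 genes in all. Total RNA came from colon mucosal scrapings of C57BL/6 mice, 6 to 8 weeks old by the labels' protocols and 7 weeks old by the design text. Both genotypes had taken 3% dextran sulfate sodium (DSS), a chemical that damages the lining of the colon, for 3 days. The Hif-2αF/F group carries floxed alleles of Epas1, the gene of the oxygen-regulated transcription factor HIF-2α, and serves as the control. Hif-2αΔIE mice are taken, as this model is commonly described, to lack Epas1 in the epithelial cells of the intestine; the labels spell out neither this nor the Cre driver. According to the design text there were 6 F/F mice and 5 ΔIE mice, but each genotype has 1 array, and the labels do not say whether RNA of several mice was pooled on it. No group without DSS was analysed here, so no value below is a response to injury.

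Secretory cells of the gut arise from progenitors in which Notch signalling is low and Atoh1 is switched on. Spdef and Creb3l1 then act in goblet cell maturation, and Agr2 and Ern2 serve the folding of mucins, the very large glycoproteins that form the mucus gel. Goblet cells release mucins together with smaller proteins such as Tff3, Fcgbp, Zg16 and Clca1, which stabilise, cross-link or cut the gel, or bind the bacteria that reach it.

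All values are log2 signals after robust multi-array averaging (RMA), and every difference is the ΔIE value less the F/F value, so that 1 means 2-fold. With 1 array per genotype there is no replicate error and no test between genotypes, so each value describes these 2 arrays. The spread between probe sets of a gene was the only error that could be measured. For 5110 genes with at least 2 probe sets above the expression filter, a signal of 6.11, the median gap between the differences of the 2 brightest was 0.10, and for 95% of genes it was at most 0.41. Cre recombinase was read by 4 control probe sets at 2.92 to 4.22 in the F/F sample and at 7.86 to 10.01 in the ΔIE sample. Whether that signal came from the mice or from control material was not tested. Epas1 differed by -0.13 and 0.16 by its 2 probe sets, whose position relative to the deleted part was not determined. Muc2, the gene of the main gel-forming mucin of the colon and the defining marker of its goblet cells, read 14.07 in the F/F sample and 14.34 in the ΔIE sample. Of 11 general epithelial markers, 11 were above the filter, with a median difference of 0.02 (-0.01 after a lowess correction) and summed linear signals of 89595 and 93217. The labelled tissue, colonic mucosa with goblet cells, thus had its defining markers on both arrays.

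The promoters of Atoh1 and Spdef, the members with the largest differences, are shown beside that of Fcgbp, whose difference was near 0, because HIF-2α is known to bind a short core motif. Windows from RefSeq (build GRCm38.p6) were found for 5 of the 10 members, namely Atoh1, Spdef, Gfi1, Agr2 and Fcgbp. Each sequence is the 250 bases before a transcription start site, 5′ to 3′ on the gene's strand, and capitals mark ACGTG or GCGTG on either strand, the A and G forms of the core motif of hypoxia-inducible factors. The Spdef window precedes a start site that lies inside the annotated span of the gene.
Atoh1, chr6:64728875-64729124, plus strand: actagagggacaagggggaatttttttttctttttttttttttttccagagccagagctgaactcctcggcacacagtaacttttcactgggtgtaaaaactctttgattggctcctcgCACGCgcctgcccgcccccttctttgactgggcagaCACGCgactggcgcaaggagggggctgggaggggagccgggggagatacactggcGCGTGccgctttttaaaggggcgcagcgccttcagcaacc
Spdef, chr17:27728952-27729201, minus strand: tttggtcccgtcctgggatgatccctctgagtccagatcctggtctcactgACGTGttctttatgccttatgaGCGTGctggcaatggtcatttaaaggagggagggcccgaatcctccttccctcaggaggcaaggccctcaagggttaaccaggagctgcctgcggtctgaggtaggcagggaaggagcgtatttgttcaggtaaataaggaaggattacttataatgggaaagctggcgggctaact
Fcgbp, chr7:28070986-28071235, plus strand: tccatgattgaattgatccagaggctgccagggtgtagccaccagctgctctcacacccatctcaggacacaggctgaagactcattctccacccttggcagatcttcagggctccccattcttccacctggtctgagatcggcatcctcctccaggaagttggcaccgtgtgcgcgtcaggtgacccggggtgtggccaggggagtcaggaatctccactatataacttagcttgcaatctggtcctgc
In the Atoh1 window GCGTG occurred at 3 positions, on the opposite strand at 131 and 95 bases before the start site and on the gene's own strand at 40, counted to the leftmost base of the match. The Spdef window held ACGTG at 199 and GCGTG at 177 bases before the start site, both on its own strand. Neither form was found in the windows of Fcgbp and Agr2 or in either of the 2 windows of Gfi1. Of all 32851 promoter windows of this length, 38.6% held at least 1 of these forms, so 2 of 5 members is near that share. The E-box CAGNTG, the kind of motif that basic helix-loop-helix factors such as Atoh1 bind, lay at 3 positions in the Fcgbp window, at 1 in 1 of the Gfi1 windows and in none of the Atoh1, Spdef and Agr2 windows, against 44.8% of all windows. All motifs were searched on both strands; the E-box can share only end bases with the core forms, and ACGTG matches both strands where CACGTG occurs. A match of letters is a description of the window and not a binding site.

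The transcription factors and the ER proteins had higher signals on the ΔIE array, and the secreted mucus products hardly differed. Of the 10 members, 9 lay above 0, against 52.7% of the 11899 genes that reached the filter, and 1 below 0, against 46.5%. Only Spdef was at least 2-fold higher, against 1.15% of all genes, and no member was at least 2-fold lower, against 5.3%. At 1.5-fold, a threshold that 4.37% of all genes passed upwards and 10.6% downwards, the higher members were Spdef, Atoh1, Agr2 and Creb3l1, with no member lower. At 3-fold no member was higher, against 0.168% of all genes, or lower, against 1.49%. The factors had a median difference of 0.80, the ER proteins of 0.61 and the mucus products of 0.04, while the median over all genes was 0.02 with quartiles of -0.18 and 0.19. The factors thus lay 0.76 above the mucus products by their medians. The lowest factor, Gfi1, was 0.27 above the highest mucus product, Clca1, which is inside the 0.41 that covers 95% of probe set pairs. Those pairs are probe sets of the same gene on the same arrays. The 0.41 therefore holds no variation between mice and is no error bound for a distance between genes. In bulk RNA of a scraping, a different number of cells of a type and a different amount of RNA per cell cannot be told apart.

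**Figure D1:**
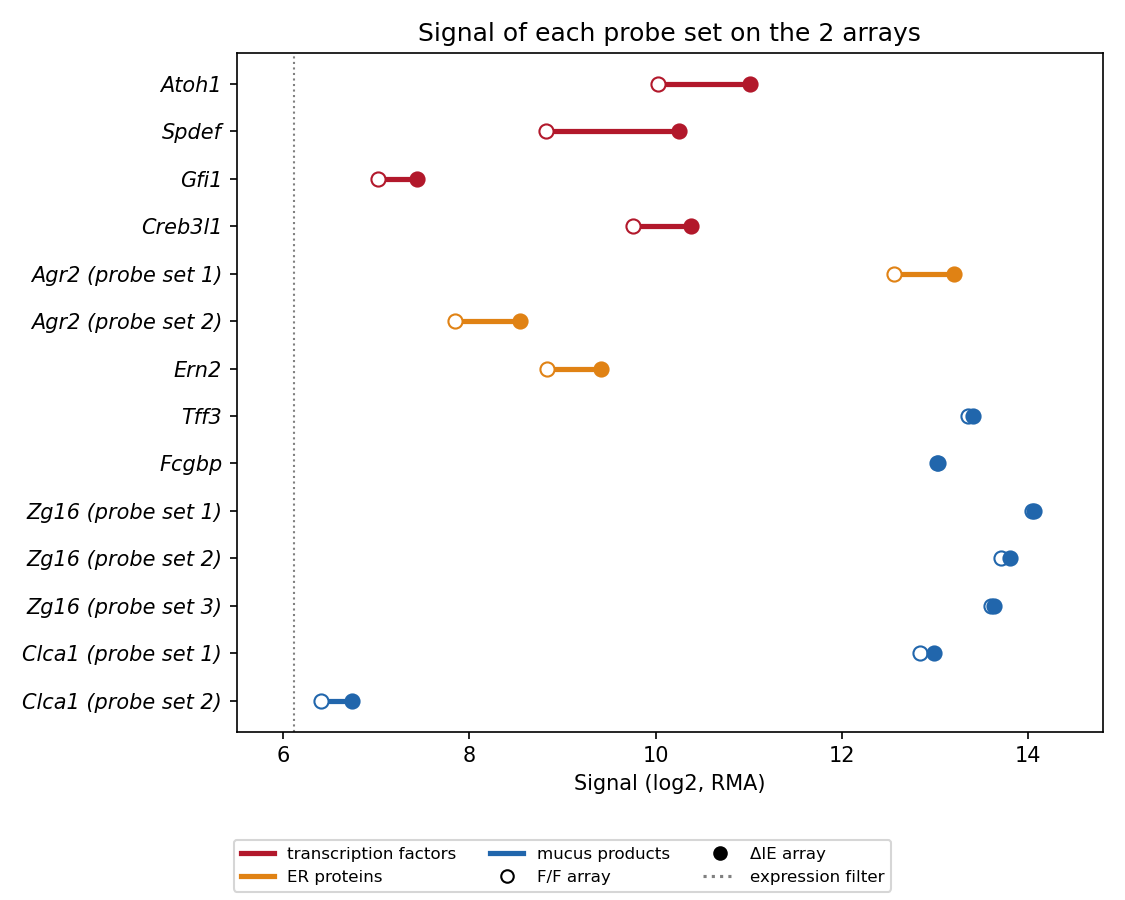
Signal (log2, RMA) of each of the 14 probe sets of the members on the F/F array (open circle) and the ΔIE array (filled circle), coloured by role; the dotted line is the expression filter. The factors and ER proteins are displaced to the right on the ΔIE array, by 0.42 (Gfi1) to 1.43 (Spdef), whereas the circles of Fcgbp and Zg16 overlap.

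Among the transcription factors, Spdef differed most. Spdef, an ETS family factor that drives goblet cell maturation, read 8.83 in the F/F sample and 10.26 in the ΔIE sample by probe set 1450220_a_at, a difference of 1.43 or 2.69-fold. Of all genes that reached the filter, 39 had a larger positive difference. Atoh1, the basic helix-loop-helix factor that commits progenitors to the secretory lineage, read 10.03 and 11.01 (1449822_at). Its difference of 0.98, or 1.98-fold, fell just short of the 2-fold threshold, passed it once each array was centred on its median, and was exceeded by 146 genes. These factors thus stand near the upper end of the differences on these arrays.

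Creb3l1, an ER-anchored factor that is released by proteolysis and acts late in goblet cell maturation in the colon, read 9.76 in the F/F sample and 10.38 in the ΔIE sample (1419295_at), a difference of 0.62 or 1.54-fold. It was exceeded by 458 genes. Gfi1, a zinc finger repressor that acts downstream of Atoh1 and holds back the enteroendocrine programme in secretory progenitors, read 7.02 and 7.44 (1417679_at). That is the smallest difference among the factors, 0.42 or 1.34-fold, from the dimmest of their probe sets. Each of the 4 factors rests on 1 probe set, so none could be checked against another probe set of its gene.

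The ER proteins differed by amounts like that of Creb3l1. Agr2, a protein disulfide isomerase needed for making Muc2, read 12.56 in the F/F sample and 13.20 in the ΔIE sample by its brighter probe set, a difference of 0.64 or 1.56-fold. Its dimmer probe set, which can match several transcripts, read 7.85 and 8.55, a difference of 0.70. The 2 probe sets of Agr2 thus gave differences within 0.10 of each other, the median gap, although their signals were far apart. Ern2, the ER stress sensor IRE1β of mucus-producing epithelium, read 8.84 and 9.41 (1450139_at), a difference of 0.57 or 1.49-fold.

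The 4 mucus products were nearly level between the arrays. Tff3, a trefoil peptide of the mucus that aids epithelial repair, read 13.35 in the F/F sample and 13.41 in the ΔIE sample (1417370_at), a difference of 0.05. Fcgbp, a large protein with repeated von Willebrand D domains that is a main component of colonic mucus, read 13.03 and 13.02 (1426872_at). It was the 1 member below 0, by -0.01, and it lay just above 0 after median centring. Zg16, a lectin that binds Gram-positive bacteria, had 3 probe sets, which read 14.04, 13.71 and 13.60 on the F/F array and 14.07, 13.81 and 13.63 on the ΔIE array.

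The 3 differences of Zg16, 0.03, 0.09 and 0.04, all lay close to 0, and a lowess correction put that of the brightest just below 0. Clca1, a secreted metalloprotease that cuts Muc2, read 12.84 and 12.99 by its brighter probe set, a difference of 0.15. Its dimmer probe set read 6.41 and 6.74, a difference of 0.34, so the largest difference among the products came from a signal just above the filter.

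The factors and the mucus products also differed in where their probe sets lie on the signal scale. The products' brightest probe sets had mean signals from 12.91 upwards, near the top of a scale that ended at 14.43 and 14.48, and the factors' lay between 7.23 and 10.52. In the range of the products there were 141 genes, of which none was 2-fold higher, 1 (0.709%) was 2-fold lower, and the quartiles were -0.09 and 0.15. In the range of the factors there were 7524 genes, of which 1.18% were 2-fold higher and 5.01% lower, with quartiles of -0.16 and 0.19. The widest positive difference in the range of the products was 0.76. Agr2, with a mean signal of 12.88 just below that range, differed by 0.64. The part of the signal scale in the gap between factors and products was not tested. A signal depends on the probes as well as on the amount of RNA, so these ranges are positions on the measurement scale and say nothing of which gene has more RNA.

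**Figure D2:**
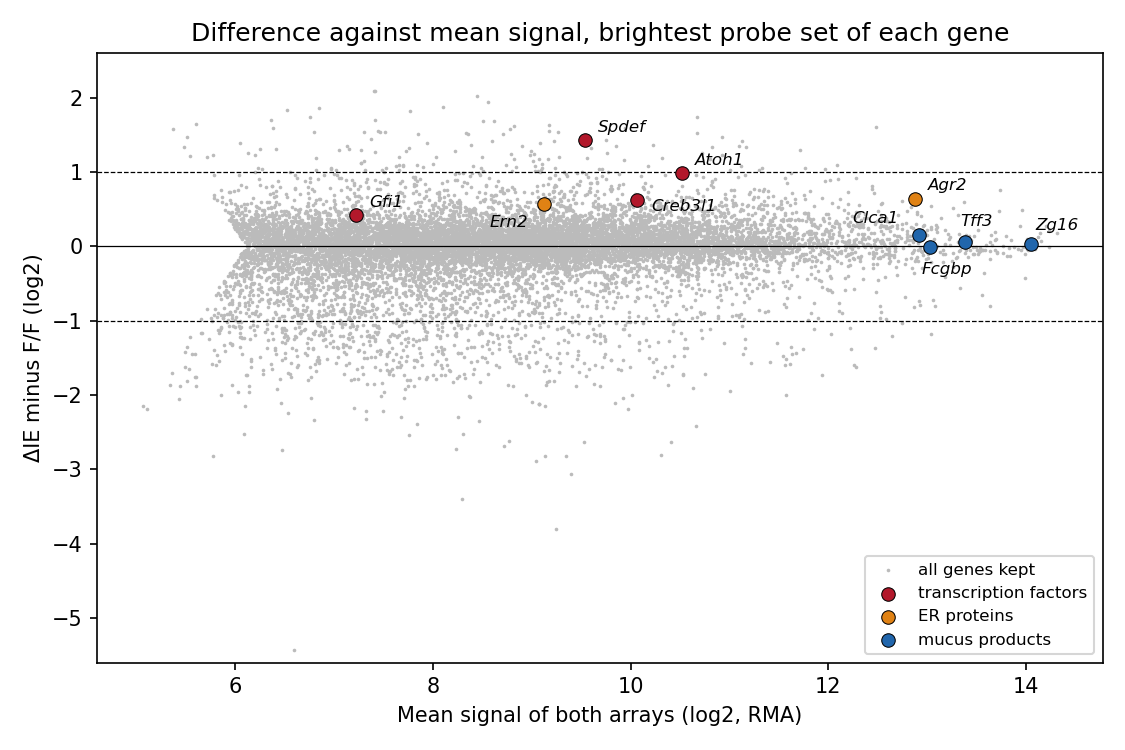
Difference (ΔIE minus F/F, log2) against the mean signal of both arrays (log2, RMA) for the brightest probe set of each of 11899 genes (grey), with the 10 members coloured by role and dashed lines at 2-fold. Spdef lies above the upper line at 1.43 and Atoh1 just under it at 0.98, while the 4 mucus products lie at the bright end between -0.01 and 0.15.

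Other genes listed for goblet cells had a median between those of the factors and the mucus products. Single genes lay above and below both groups. Some of them, such as Guca2a and Lypd8, may also be expressed by colonocytes, whose part was not tested. Of 23 listed genes 21 reached the filter, 18 of them above 0, with a median of 0.38, 3 at least 2-fold higher and 1 at least 2-fold lower. Ang4, an antimicrobial ribonuclease, read 8.36 in the F/F sample and 9.99 in the ΔIE sample, a difference of 1.64. Slc12a8, a membrane transporter, differed by 1.28, and Sytl4, a Rab effector of secretory granules, by 1.09. Best2, a bestrophin ion channel of colonic goblet cells, went the other way at 8.61 and 7.58, a difference of -1.03. Muc2 itself differed by 0.28.

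When these 21 genes were divided by signal, a division chosen after values were seen, the 5 whose probe sets lay at or above the signal of the Clca1 probe set had a median of 0.28 and ranged from -0.01 to 0.59. The other 16 had a median of 0.47. Of the 5, Klk1, a kallikrein protease, differed most, by 0.59 at signals of 13.08 and 13.67. Guca2a differed by 0.49, Muc2 by 0.28, Spink4 by 0.08 and Lypd8 by -0.01.

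Factors that specify or support other secretory cells, or the gut epithelium as a whole, lay on both sides of 0. Of 22 listed, 16 reached the filter, 9 above 0 and 7 below, with a median of 0.23, and the median ran from 0.06 with a filter at the 75th percentile to 0.34 with no filter. Cdx2, the regulator of intestinal identity, read 10.49 in the F/F sample and 11.51 in the ΔIE sample, a difference of 1.02 that fell below 2-fold after a lowess correction. Creb3l4, a relative of Creb3l1, differed by 0.93, and Creb3l2, another relative, by -0.45. Neurod1, a factor of enteroendocrine differentiation, differed by 0.75 and Foxa3, a forkhead factor, by 0.73. Xbp1, the target of the IRE1 enzymes, differed by -0.07, and Klf4, a factor of goblet cell differentiation, read 12.50 on both arrays. Gfi1b, the relative of Gfi1 found in tuft cells, was below the filter on both arrays.

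Genes of the Notch pathway, which represses Atoh1 in progenitors, lay mostly below 0. Of 33 listed genes 31 were on the array and 26 reached the filter, with 9 above 0, 17 below 0 and a median of -0.21 (-0.01 with a filter at the 75th percentile). Of all genes, 46.5% lay below 0. None of the Notch list was 2-fold higher, against 1.15% of all genes. At least 2-fold lower were 2 of 26, near the 5.3% of all genes. That count was 1 with probe sets averaged, with the filter at the 75th percentile or with the filter asked of both arrays. Olfm4, a secreted glycoprotein gene that responds to Notch, read 7.59 on the F/F array and 6.06, just below the filter, on the ΔIE array. The receptor gene Notch2 read 9.44 and 8.26, a difference of -1.18, and Notch3 and the ligand gene Jag1 differed by -0.95 and -0.84. Hes1, the epithelial Notch target that directly represses Atoh1, differed by 0.07, at 9.65 and 9.72. The ligand genes Dll1 and Dll4 differed by -0.27 and 0.14. Several Notch genes are also expressed in vessels and other stroma, and fibroblast and matrix markers were lower on the same array (12 of 13 below 0, median -0.81, summed linear signals of 45598 and 27681). Leukocyte markers were lower there as well (20 of 20 below 0, median -1.41). The part of stroma and leukocytes in the Notch values, that of Olfm4 included, was not tested.

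The general machinery for folding and exporting secreted proteins lay near 0. All 33 genes of the unfolded protein response reached the filter, 17 above 0 and 16 below, none of them 2-fold in either direction, with a median of 0.04 (-0.04 after a lowess correction). The values ran from -0.45 for Edem1, which like Derl1 (-0.29) and Derl3 (-0.28) acts in the disposal of misfolded proteins, to 0.29 for Ddit3, the stress factor CHOP. Ern1, the widely expressed relative of Ern2, read 9.34 and 9.28, a difference of -0.05, and the chaperone gene Hspa5 differed by -0.20. Of the 38 genes of ER entry and of transport to the Golgi, 34 reached the filter, 22 above 0 and none at 2-fold, with a median of 0.08. The largest differences there were 0.50 for Kdelr3, a receptor that returns ER proteins, 0.46 for Mia3, which helps load large cargo, 0.45 for Sar1b, the GTPase that starts the transport vesicles, and 0.30 for Sec11c, a signal peptidase subunit.

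**Figure D3:**
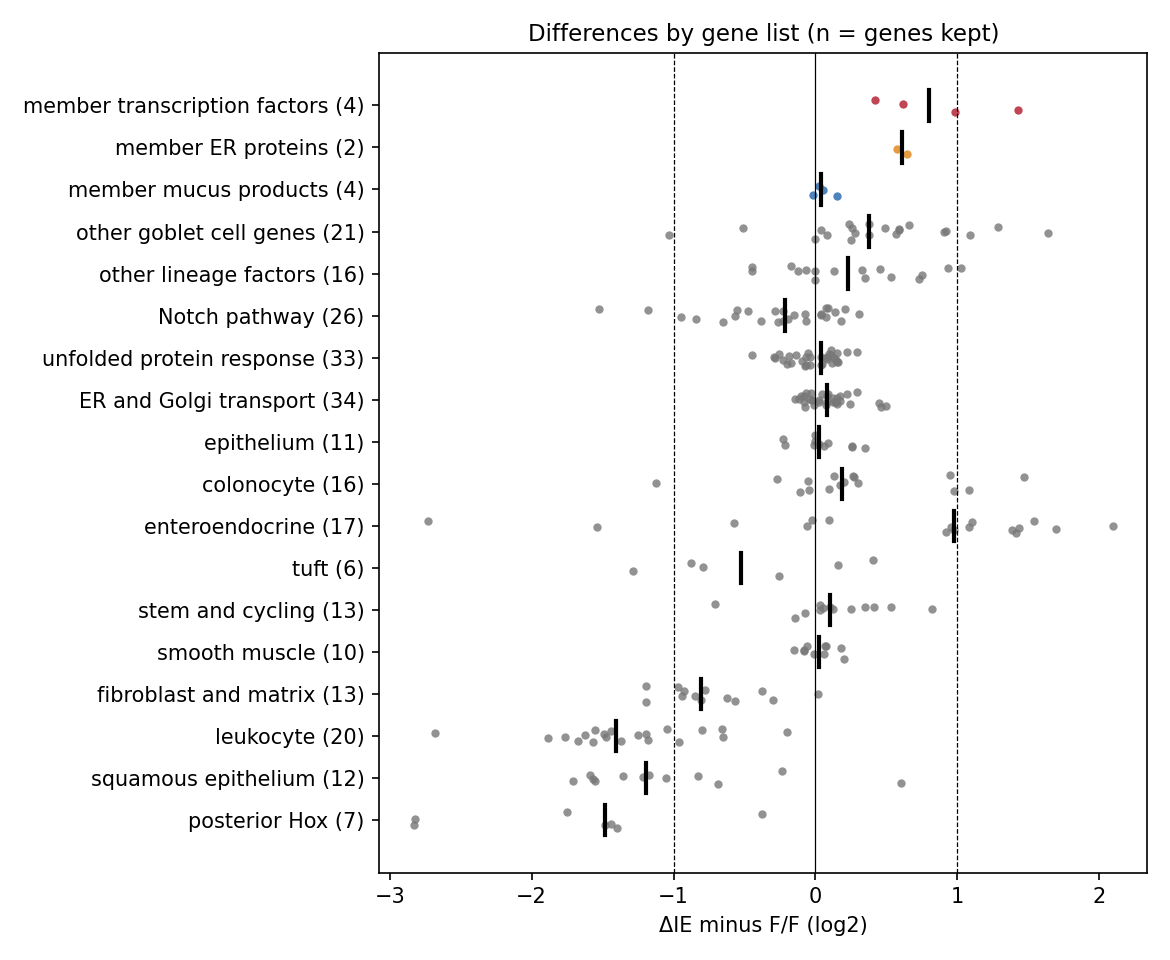
Difference (ΔIE minus F/F, log2) of each gene that reached the filter, by gene list, with the number of genes in parentheses, a black bar at the median and dashed lines at 2-fold. The medians of the member factors (0.80) and ER proteins (0.61) lie right of the mucus products (0.04) and the unfolded protein response (0.04, or -0.04 after a lowess correction), whereas the medians of the leukocyte, squamous and posterior Hox lists lie left of -1.

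Markers of the other epithelial cell types were read beside these values. The enteroendocrine list, the hormone-secreting branch of the secretory lineage, had a median of 0.98 over 17 genes, 12 above 0, with 8 at least 2-fold higher and 2 at least 2-fold lower. Its summed linear signals were 8828 and 12509. Atoh1 is known to act upstream of this branch as well as of goblet cells, and the part of enteroendocrine cells in its value was not tested. Colonocyte genes had a median of 0.19 over 16 genes, 11 above 0, with 2 at least 2-fold higher and 1 at least 2-fold lower. Their values ran from -1.13 to 1.47, and their summed linear signals were 82420 and 95897. Stem and cycling genes had a median of 0.10 over 13. Of 12 tuft cell genes on the array, 6 reached the filter, with a median of -0.52 that turned to 0.08 with no filter. Of these 6, 4 lay below 0, namely Alox5ap (-1.29), Plcg2 (-0.88), Dclk1 (-0.79) and Alox5 (-0.26). The 2 above 0 were Avil (0.40) and Ltc4s (0.16). Alox5ap, Plcg2 and Alox5 are also leukocyte genes, and the part of leukocytes in the tuft values was not tested. The tuft channel gene Trpm5 and cytokine gene Il25 were below the filter on both arrays.

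Marker genes of several cell types outside the glandular epithelium, and of position along the gut, differed in signal between the same arrays. Neither cell numbers nor the position sampled was measured. All 20 leukocyte genes that reached the filter were lower in the ΔIE sample, and 15 passed 2-fold, with a median of -1.41 and summed linear signals of 56036 and 28484. Squamous epithelium genes, of the kind found at the anal end of the colon, lay below 0 in 11 of 12, with a median of -1.19 and sums of 26893 and 11284. The posterior Hox genes, which mark the distal gut, lay below 0 in 7 of 7, with a median of -1.49 and sums of 4226 and 871. Smooth muscle genes had a median of 0.02 (-0.02 after a lowess correction). Goblet cell genes are known to vary along the colon, and the part of position, of leukocytes and of squamous tissue in the members' values was not tested.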

How the data were processed

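The deposited table holds log2 signals of 45101 probe sets on 2 arrays, which the authors made with affy and RMA (background correction, quantile normalization and probe set summary), per the submitters' processing notes; versions and which arrays were normalized together are not stated there. RMA gives no detection call, and quantile normalization hides a change shared by the majority of genes. The 2 arrays limit the precision. Gene symbols came from the platform annotation (1 symbol for 34958 probe sets, several for 932, none for 9211); probe sets with several were left unnamed, and 64 control probe sets were kept out. A gene took its brightest probe set by the mean of both arrays, and stayed in if either array was at or above 6.11, the median over probe sets of the mean of both arrays, which left 11899 genes. Genes were counted at 2-fold, and a fold is 2 raised to the size of the difference. No test between genotypes was run, since each genotype has 1 array. Summed linear signals are sums of 2 raised to the log2 value over the genes kept. The members and lists were chosen with earlier results of these data known. Named are all members and, from 15 other lists, genes at 2-fold and up to 4 of largest difference, with counts alone for marker lists, and Epas1 and Muc2; other genes were chosen after their values were seen. The counting of genes past 2-fold was checked on a simulated table with known differences. Python 3.11.15, numpy 2.4.6, pandas 2.3.3, statsmodels 0.14.6 and matplotlib 3.10.9 were used.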

Additional observations from a re-analysis of the deposited data

How the results depend on the processing

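Alternatives were averaging probe sets, dropping the _s_at and _x_at ones, omitting the filter, raising it to the 75th percentile, asking it of both arrays, centring on medians, lowess (span 0.3), 1.5-fold and 3-fold thresholds, counting Agr2 as a product, and means for medians. A gene was taken to have moved past 0.41 and a median past 0.10, limits set after seeing the data. A count was taken to have moved if it changed by more than 1.5-fold, or to or from 0. In 69 comparisons no member moved, and of 42 for the summary values 37 stayed. Many of the 69 could not move. A filter can drop a member but cannot change its difference, and median centring shifts every gene alike. Averaging or dropping probe sets cannot alter the 7 members with 1 probe set. Several of the 42 were fixed in the same way. Averaging or dropping probe sets cannot alter the factors, and median centring leaves their distance from the products unchanged. All members also passed the filter asked of both arrays, so omitting it or asking it of both changed none of the 42. The counts of 69 and 42 are therefore no measure of how firm these values are. For the other lists and all genes, 48 of 402 moved. Some of the 402 could not move either, such as the unfolded protein response median under the 1.5-fold and 3-fold thresholds. The number of members 2-fold higher was 2 after median centring, 4 at 1.5-fold and 0 at 3-fold. With the filter at the 75th percentile, which drops Gfi1, the factors' median was 0.98 and their distance from the products 0.94. Over all alternatives that distance ran from 0.74 to 0.94. Of all genes, 381 in place of 631 were 2-fold lower with that filter. No paired analysis was possible because each genotype has 1 array. A difference seen on a single array per genotype has no replicate check.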
